A study of Mus musculus with 16 samples.

Results

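The tRNAs that carry the basic amino acids lysine, arginine and histidine were examined in plasma extracellular vesicles (pEVs) of PS19 and wild-type (WT) mice. They comprise every entry of the ncRNA table whose name begins with Mus_musculus_tRNA-Lys-, -Arg- or -His-, which gave 66 entries among 433 tRNA entries and 15159 ncRNAs. The 31 lysine, 25 arginine and 10 histidine entries were grouped by anticodon, the 3 bases that read the codon. There were 8 PS19 and 8 WT libraries. PS19 mice (genotype PS19+/-) carry human tau with the P301S mutation under the mouse prion protein promoter, and WT littermates lack it, both on a mixed C57BL/6 and C3H background, at 9.6 months of age and with males and females in equal number. Vesicles came from 200 µL of plasma by a precipitation kit, so they stem from no single tissue, and a lower level can reflect fewer vesicles of a kind or less RNA in each, which cannot be told apart here. The tau transgene is no ncRNA, so the table holds no check of the genotype.

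A tRNA brings its amino acid to the ribosome and pairs with the codon through its anticodon. Lysine is read by anticodons CTT and TTT, histidine by GTG, and arginine by 5 anticodons, of which TCT and CCT read a codon box apart from that of ACG, TCG and CCG. Outside the cell, tRNAs are found largely as fragments made by cleavage in the anticodon loop, and small RNA sequencing counts those fragments rather than amino acid charging. An isodecoder is a set of tRNAs with 1 anticodon and 1 sequence, and its number is the first number after the anticodon in an entry name, with the gene copy as the last number.

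RefSeq (GRCm38) lists 10 tRNA-His genes with anticodon GTG, of which 6 lie at chr3:96410069-96500437, 3 at chr2:122375494-122378039 and 1 at chr4:82619623-82619694. It also lists 1 tRNA-His gene with anticodon ATG, n-THatg1 (chr1:171669439-171669511), and no entry of that anticodon was analysed here. The table does not pair its entry names with RefSeq symbols, so no entry was assigned to a locus. Genes of all 8 anticodons were 72 to 87 bases long, introns included, and levels set side by side below were not divided by length. The genomic sequences of 2 tRNA-Arg genes, read from longer reference entries that span them, are shown because tRNA-Arg-TCT supplied one of the entries that passed the test and because a TCT gene carries an intron and a TCG gene does not. The anticodon, at bases 34 to 36 from the 5′ end, is in capitals.
n-TRtcg5 (tRNA-Arg-TCG, chr7:79466419-79466491, plus strand, 73 bases, in the window around the Polg start site): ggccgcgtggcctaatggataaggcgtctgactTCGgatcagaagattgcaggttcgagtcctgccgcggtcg
n-TRtct2 (tRNA-Arg-TCT, chr3:122292948-122293032, minus strand, 85 bases with the intron, in an exon of the noncoding transcript Gm17494): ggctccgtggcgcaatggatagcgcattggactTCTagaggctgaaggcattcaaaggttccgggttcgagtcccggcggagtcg

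Summed over all entries, libraries held 36220722 to 117583663 ncRNA reads, of which tRNAs took 90.8% to 99.9%. Copies of a gene often repeat the same values, and these totals count them at each copy. The shares of a library and the reads per 1000000 tRNA reads given below rest on such totals. The deposited values are read counts divided by a size factor per library, and 1 read was worth between 0.389 normalized counts (WT replicate 5) and 3.83 (PS19 replicate 4). WT replicate 2 was the shallowest library and had the highest miRNA share (7.51%). All 8 PS19 library names begin with the letter G, as do only WT replicates 2 and 4. The meaning of the letters is not given, and the other 6 WT names begin with F or A. The marker miRNAs of blood, liver and neurons were all listed, and each had reads in at least 1 library. Reads in every library were found for 3 of 5 red cell, 3 of 5 leukocyte and platelet, 3 of 3 liver and 4 of 5 neuron miRNAs. The lowest total was 17 reads, at mmu-miR-144-5p. Summed normalized counts spanned 3517 to 88200.2 in PS19 and 34008 to 186535 in WT for 5 red cell miRNAs, 104 to 403 and 146 to 409 for 5 of leukocytes and platelets, 8502 to 211904 and 26564 to 386443 for 3 of liver, and 1074 to 10400.3 and 2306 to 11065 for 5 of neurons. At a raw p under 0.05, 2 of the 5 red cell and 1 of the 3 liver miRNAs were lower in PS19, and the part of these cell types in the tRNA values was not tested.

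Histidine tRNA made up 99.3% of the reads of the 66 entries, lysine tRNA 0.625% and arginine tRNA 0.0305%. With each set of entries of identical values counted once, these shares were 99.1%, 0.842% and 0.0789%. In reads per 1000000 tRNA reads and over all entries, the histidine entries summed to 147 in the lowest library, 4424 in the median library and 19955 in the highest. Lysine entries summed to 11.9, 22.7 and 159, the highest being PS19 replicate 4, with 48.7 in the next library. Arginine entries summed to 0.122, 1.12 and 17.5, the highest being WT replicate 2, with 2.27 in the next. All 3 amino acids are minor beside glutamate and glycine tRNAs, which had medians of 53.1% and 46.7% of the tRNA reads, with every gene copy counted. Intervals and floors given for these libraries cover counting error only, because the reads carry no molecular identifiers.

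Many entries were copies of each other in the table. The 66 entries had 42 distinct sets of values, and 35 entries shared every value with another of the 66. Of 9 isodecoders with several gene copies, 34 copies in all, 6 had identical reads in each library at every copy. The largest gap in any library was 14 reads, at tRNA-Lys-CTT-3. Entries of 1 isodecoder are therefore not separate measurements. The order of the anticodons takes 1 entry per set of identical values, in which copies that differ by a few reads, such as tRNA-His-GTG-2-1 and tRNA-His-GTG-2-6, still enter separately. Other sums are over all entries of an anticodon unless stated otherwise. Near copies also crossed anticodons, since tRNA-Arg-CCG-1-1 and tRNA-Arg-TCG-2-1 had equal reads in 14 of 16 libraries and differed by at most 4.

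With 1 entry per identical set, the order of the anticodons by their median summed normalized count was tRNA-His-GTG (106224), Lys-TTT (303), Lys-CTT (292), Arg-CCT (20.7), Arg-TCT (15.0), Arg-ACG (9.23), Arg-CCG (7.19) and Arg-TCG (2.38). tRNA-His-GTG exceeded Lys-TTT in 16 of 16 libraries, by 7.40 ± 1.63 on the log2 scale (SD over libraries). Lys-CTT exceeded Arg-CCT in 16 of 16 libraries as well, by 4.28 ± 2.04. The other neighbours differed by less than 1 SD of their difference, Lys-TTT being above Lys-CTT in 7 of 16 libraries and Arg-TCT above Arg-ACG in 8 of 16. The plot of summed levels by library shows these tiers and the overlap of the genotypes within each anticodon.

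**Figure D1:**
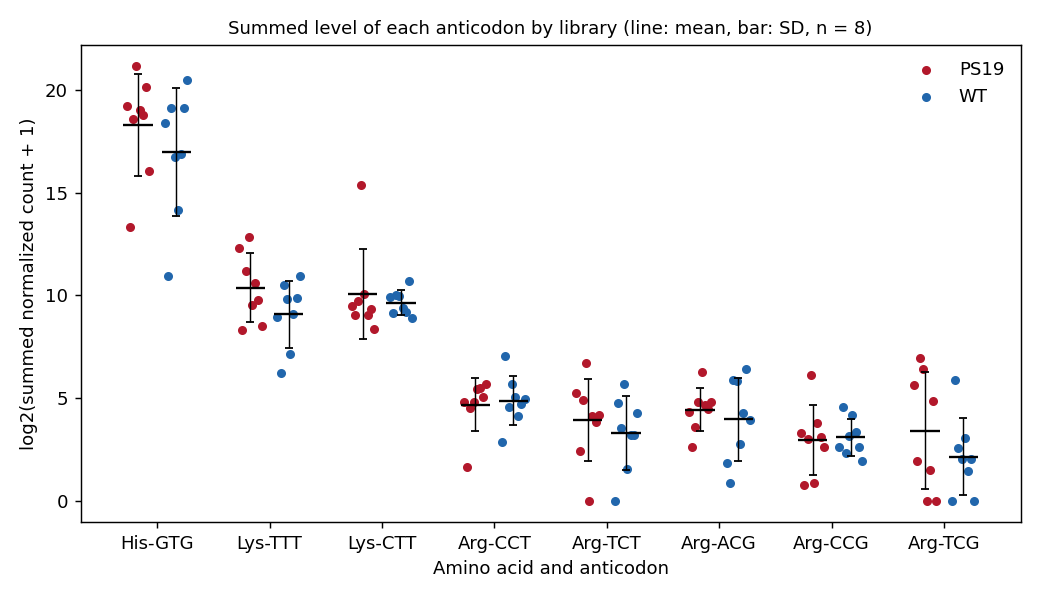
Each point is 1 library, plotted as log2 of the normalized counts summed over all entries of an anticodon, plus 1, with the mean (line) and SD (bar) of 8 PS19 (red) and 8 WT (blue) libraries. Most histidine points lie far above the lysine points, and most lysine points above arginine. The lone high Lys-CTT point, PS19 replicate 4 at 42334 normalized counts, lies above the 3 lowest histidine points.

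The study asked whether pEV cargo differs between PS19 mice and WT. For these tRNAs, limma on log2(normalized count + 1) found 2 of 66 entries higher in PS19 mice compared to WT at a raw p under 0.05 (3.03%), where 2.72% of all ncRNAs tested were higher. None of the 66 was lower, against 2.13% of all ncRNAs. After adjustment over all 15159 ncRNAs by the Benjamini-Hochberg method, limma called 0 of the 66 (0% of all ncRNAs) and DESeq2 called 0 of the 51 to which it gave an adjusted p (against 2.47% of such ncRNAs), while edgeR called 1, tRNA-Lys-CTT-1-1 (against 2.1% of all ncRNAs). The groups overlapped at each of the 66 entries, as they did at each ncRNA in the table (0% without overlap), and an exact two-sided permutation test over the libraries gave no entry a p under 0.05 (smallest 0.0699), against 3.96% of all ncRNAs.

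The log2 fold change was above 0 for 50 of the 66 entries and its median was 0.46, against -0.01 over all ncRNAs. Of the other tRNAs, 283 of 367 were above 0, with a median of 0.51, and 29 were higher (7.90%) and 0 lower. Without PS19 replicate 4 the median of the 66 was 0.11 with 35 above 0, and that of the other tRNAs 0.21, while leaving out any other library gave the 66 a median of 0.34 to 0.65. The median of the 66 moved with the scaling, to 0.15 with library totals (reads divided by each library's total) and 1.003 with miRNA size factors (factors computed from miRNAs alone), while that of all ncRNAs moved to -0.11 and 0.18. By anticodon the median was 1.32 for Lys-TTT (10 of 10 entries above 0), 1.31 for His-GTG (10 of 10), 1.34 for Arg-TCG (4 of 5), 0.42 for Lys-CTT (17 of 21), 0.12 for Arg-TCT (5 of 6), -0.09 for Arg-ACG (3 of 6), -0.17 for Arg-CCG (1 of 3) and -0.11 for Arg-CCT (0 of 5). The counts and medians over entries repeat shared values, as for the 8 tRNA-His-GTG-2 copies. The Arg-TCG median is the value of 3 entries with identical values, while tRNA-Arg-TCG-1-1 was at 0.73 and tRNA-Arg-TCG-2-1 at -0.49. With 1 library left out, tRNA-Lys-CTT-3-6 ran from -0.31 (without PS19 replicate 4) to 0.73. For tRNA-His-GTG-2-1 the values ran from 0.45 (without WT replicate 2) to 2.02.

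**Figure D2:**
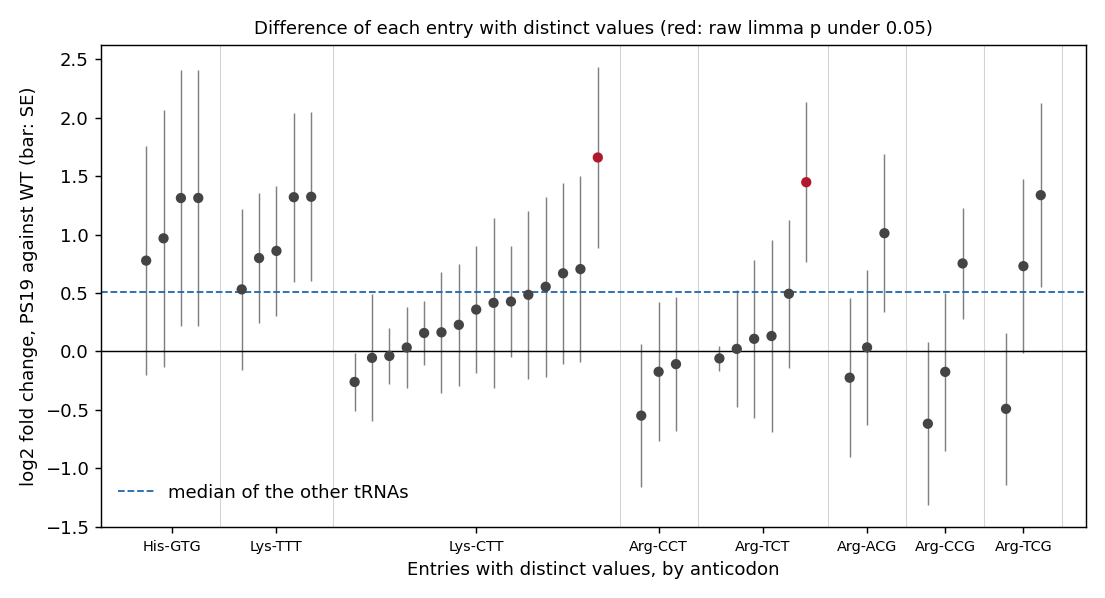
Points are log2 fold changes of PS19 against WT for the 42 sets of distinct values, with the SE as bars, by anticodon, and the dashed line is the median of the other tRNAs (0.51). The 2 red points are tRNA-Lys-CTT-1-1 and tRNA-Arg-TCT-3-1, the entries with a raw limma p under 0.05.

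tRNA-Lys-CTT-1-1, a lysine tRNA for the codon AAG, had 57 reads in PS19 and 6 in WT libraries. The PS19 libraries held 21, 0, 7, 4, 0, 0, 25 and 0 reads from replicate 1 to 8, and the WT libraries 3 reads each in replicates 4 and 5 and 0 in the other 6. In normalized counts, PS19 ran from 0 through a median of 4.80 to 30.9 (mean 9.59 ± 11.8, SD, n = 8) and WT from 0 through 0 to 4.63 (0.725 ± 1.63, n = 8). The entry was seen in 4 of 8 PS19 and 2 of 8 WT libraries, so most of its WT values lie at the floor, where a count of 0 allows up to 3 reads, or 2.56e-06% to 9.12e-06% of a WT library's tRNA reads. Its log2 fold change was 1.66 (SE 0.78, raw limma p = 0.0423, adjusted limma p = 0.829, exact permutation p = 0.0956). edgeR on the recovered reads gave an adjusted p of 0.0371 and DESeq2 one of 0.164. In limma the entry missed the raw threshold in 10 of the 16 fits that left out 1 library, namely PS19 replicate 1, 3, 4 or 7 or WT replicate 1, 2, 3, 6, 7 or 8, and also with a pseudocount of 0.1. Within the libraries of letter G its log2 fold change was 0.86, which did not pass it either, and without WT replicate 2 as well its sign turned to -0.38.

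tRNA-Arg-TCT-3-1, an arginine tRNA for the codon AGA, had 50 reads in PS19 and 38 in WT libraries. It was seen in 7 of 8 PS19 libraries, with 0 to 11 reads each, and in 5 of 8 WT libraries, where WT replicate 2 alone held 25 of the 38. Normalized counts ran from 0 through 5.64 to 19.2 in PS19 (8.53 ± 6.89, SD, n = 8) and from 0 through 0.873 to 10.8 in WT (3.21 ± 4.63, n = 8). PS19 exceeded WT by 1.45 on the log2 scale (SE 0.68, raw limma p = 0.0436, adjusted limma p = 0.829, exact permutation p = 0.0699). DESeq2 and edgeR did not call it. In limma it missed the raw threshold in 9 of the 16 fits that left out 1 library, namely PS19 replicate 1, 3, 4 or 7 or WT replicate 1, 3, 5, 6 or 7, with a log2 fold change of 1.23 to 1.85 over the 16. In WT replicates 2 and 4 the entry had 10.3 and 10.8 normalized counts, above the PS19 mean, and within letter G the sign turned to -0.73, short of the threshold.

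The nervous-system tRNA-Arg-TCT-4-1, known in mice as n-Tr20 and expressed mainly in the central nervous system, was close to the detection limit. It had 24 reads in PS19 and 36 in WT libraries, and was seen in 6 of 8 of each. The PS19 normalized counts ran from 0 through 2.29 to 11.5 and those of WT from 0 through 2.58 to 18.5, the highest being WT replicate 4 with 12 reads. It differed by 0.11 on the log2 scale (SE 0.68, exact permutation p = 0.883). The sign turned with the scaling, to -0.26 with library totals and -0.28 with tRNA totals, and within letter G it was -1.76, none of them past the threshold. With the letter as a covariate and tRNA totals, a setting added after the data were seen, it was -2.82, past the raw threshold. In that setting 7.94% of all ncRNAs were lower.

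**Figure D3:**
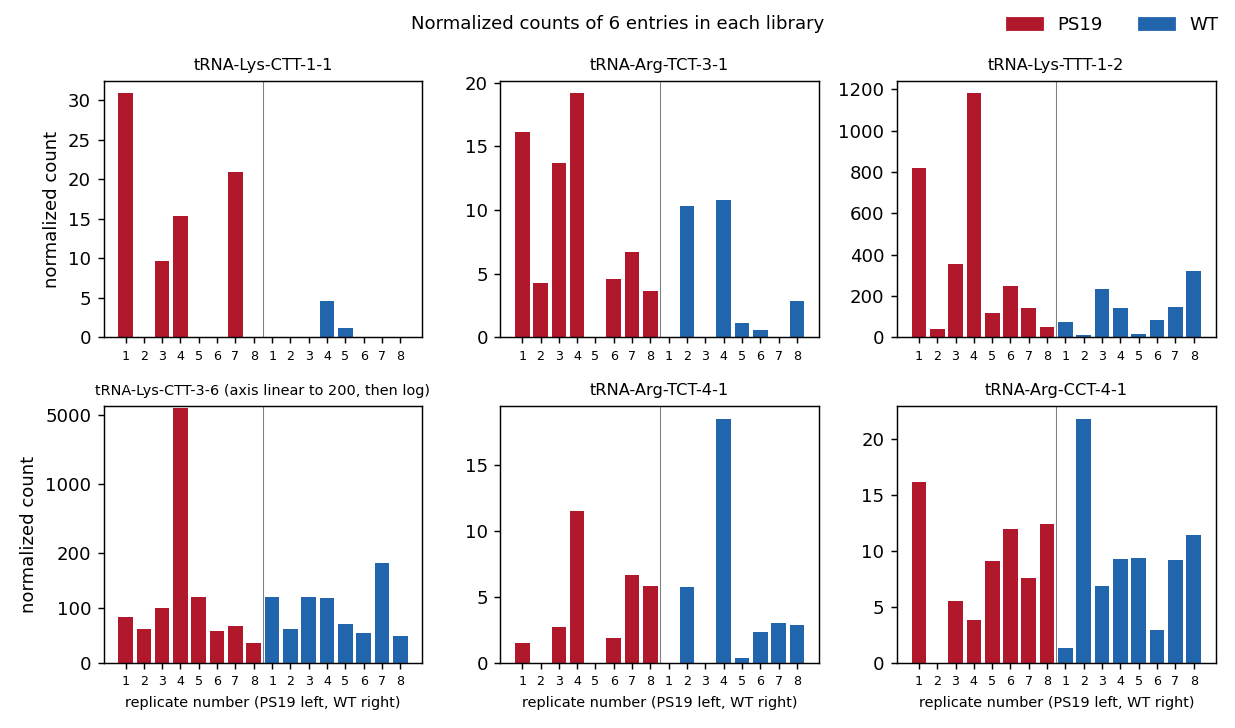
Bars are normalized counts of 6 entries in each library, PS19 replicates 1 to 8 (red) then WT replicates 1 to 8 (blue), with the tRNA-Lys-CTT-3-6 axis logarithmic above 200. tRNA-Lys-CTT-1-1 rests on 4 PS19 libraries, tRNA-Lys-CTT-3-6 has its high value in PS19 replicate 4, and tRNA-Arg-CCT-4-1 is highest in WT replicate 2 at 21.8.

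Lysine tRNA with anticodon TTT, which reads AAA, had most of its reads in isodecoder 1. tRNA-Lys-TTT-1-2, its most abundant entry, had 41.5, 196 and 1181 normalized counts as lowest, median and highest PS19 library (370 ± 413, SD, n = 8) and 10.3, 114 and 323 in WT (129 ± 107, n = 8). PS19 replicates 1, 3 and 4, at 817, 355 and 1181, lay above the highest WT library, and the other 5 PS19 libraries lay within the WT range. PS19 exceeded WT by 1.32 on the log2 scale (SE 0.72, raw limma p = 0.079, adjusted limma p = 0.829, exact permutation p = 0.146). The 6 copies of this isodecoder passed a raw p under 0.05 with DESeq2, with miRNA size factors and with the replicate number as a block, but not with edgeR. Without WT replicate 2 the difference was 0.91. tRNA-Lys-TTT-2-1, described after its values were seen, had a log2 fold change of 0.86 (SE 0.55), and its WT libraries lay between 6.17 and 22.8 normalized counts. In PS19 replicates 1 to 8 it had 101, 24.3, 80.9, 84.4, 8.25, 17.5, 9.19 and 15.99, of which 4 lie within the WT range.

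Lysine tRNA with anticodon CTT had 21 entries, of which 10 had under 100 reads over all libraries. In tRNA-Lys-CTT-3-6, the most abundant, PS19 replicate 4 held 1521 reads and the other 15 libraries 34 to 182. Normalized counts were 36.3, 75.7 and 5833 in PS19 and 48.3, 94.0 and 182 in WT. PS19 replicate 4 held 81.8% of the entry's normalized counts. The log2 fold change of 0.48 (SE 0.72, exact permutation p = 0.824) turned to -0.31 without that library. With all libraries it was negative in DESeq2, while edgeR called the 7 copies of this isodecoder higher at a raw p under 0.05. Summed over all 21 entries, PS19 had 5874 ± 14733 normalized counts (SD, n = 8) with PS19 replicate 4 and 666 ± 242 (n = 7) without it, against 865 ± 387 in WT (n = 8). With 1 entry per identical set the sums were 1793 ± 4334 in PS19 and 308 ± 130 in WT. In this measure PS19 replicate 4 was at 12517 and the next PS19 library at 386, and the medians were 295 in PS19 and 286 in WT.

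The same library stood out in other tRNAs. Of the tRNA entries with at least 100 reads, those whose reads correlated with tRNA-Lys-CTT-3-1 at a Pearson r over 0.99 across the 16 libraries were the 7 tRNA-Lys-CTT-3 copies and 12 further entries, of valine tRNA and tRNA-Gly-ACC-1-1. tRNA-Val-AAC-5-1 had 1288 of its 1624 reads in PS19 replicate 4, and tRNA-Gly-ACC-1-1 had 1097 of 1525. In these 19 entries no other library held more than 182 reads. tRNA-Lys-CTT-2-1, named after its values were seen, had 170 reads there against 37 to 159 elsewhere, so in reads it was raised there far less than isodecoder 3. Its log2 fold change was -0.055 (SE 0.54), and the sign turned to 0.53 with miRNA size factors.

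tRNA-His-GTG-2-1, which has the smallest p among histidine entries and shares its values with 5 further copies, ranged widely among libraries. Reads were 51666, 1762, 35326, 75777, 81756, 61277, 175315 and 11688 in PS19 replicates 1 to 8. In WT replicates 1 to 8 they were 33503, 600, 72014, 8790, 5903, 25563, 70138 and 127415. The low libraries were PS19 replicates 2 and 8 and WT replicates 2, 4 and 5, so that both genotypes held high and low libraries. Normalized counts were 1261, 61905 and 290598 as lowest, median and highest in PS19 (86878 ± 93683, SD, n = 8) and 247, 28642 and 181100 in WT (49486 ± 60255, n = 8). PS19 exceeded WT by 1.31 on the log2 scale (SE 1.09, raw limma p = 0.241, adjusted limma p = 0.829, exact permutation p = 0.37). The difference was 0.45 without WT replicate 2 and 2.02 without PS19 replicate 2, the lowest and highest value with 1 library left out. tRNA-His-GTG-2-6, the most abundant entry, exceeded it by at most 7 reads in a library and had the same log2 fold change.

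The 3 histidine isodecoders moved together. Reads of tRNA-His-GTG-1-1 and tRNA-His-GTG-3-1, both named after their values were seen, correlated with those of tRNA-His-GTG-2-1 at a Pearson r of 0.956 and 0.975 over the 16 libraries, as a description of entries measured in the same libraries. tRNA-His-GTG-1-1 stayed at 2.22% to 4.08% of the reads of tRNA-His-GTG-2-1 in every library, with log2 fold change 0.97 (SE 1.10), or 0.12 without WT replicate 2 and 1.68 without PS19 replicate 2. With edgeR its log2 fold change was slightly negative. tRNA-His-GTG-3-1 stayed at 0.248% to 1.33%, with log2 fold change 0.78 (SE 0.98), or 0.19 without WT replicate 2 and 1.47 without PS19 replicate 2. The 1.33% rests on 8 reads in WT replicate 2, and the median share was 0.341%.

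The level of histidine tRNA was inversely related to the miRNA share of a library, with exceptions. tRNA-His-GTG-2-1 had 18.2 reads per 1000000 tRNA reads in WT replicate 2, 27.1 in PS19 replicate 2 and 81.3 in WT replicate 5, the 3 libraries with the highest miRNA shares (7.51%, 1.87% and 2.55%). PS19 replicate 7, at 2486, had a miRNA share of 0.61%, and PS19 replicate 5, among the higher levels at 1062, had one of 1.05%. Over the 16 libraries and on log scales, Pearson's r was -0.69 (permutation p = 0.00198, adjusted p = 0.00792 over 4 relations) and Spearman's rho -0.63 (permutation p = 0.0106, adjusted p = 0.0425). Without WT replicate 2 and PS19 replicate 4, the libraries farthest from the median miRNA share, r was -0.55. It was -0.67 among the 10 libraries of letter G and -0.95 among the other 6, and -0.49 in PS19 and -0.89 in WT. The other 3 relations, with the circRNA share, the size factor and the total reads, had r of -0.59, -0.54 and 0.59, and of -0.35, -0.50 and 0.23 without the 2 libraries farthest from the median of each measure. Their r was -0.34, -0.35 and 0.24 in PS19 and -0.87, -0.66 and 0.94 in WT. Both measures come from the same library, and the miRNA share and the genotype contrast were not separated.

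**Figure D4:**
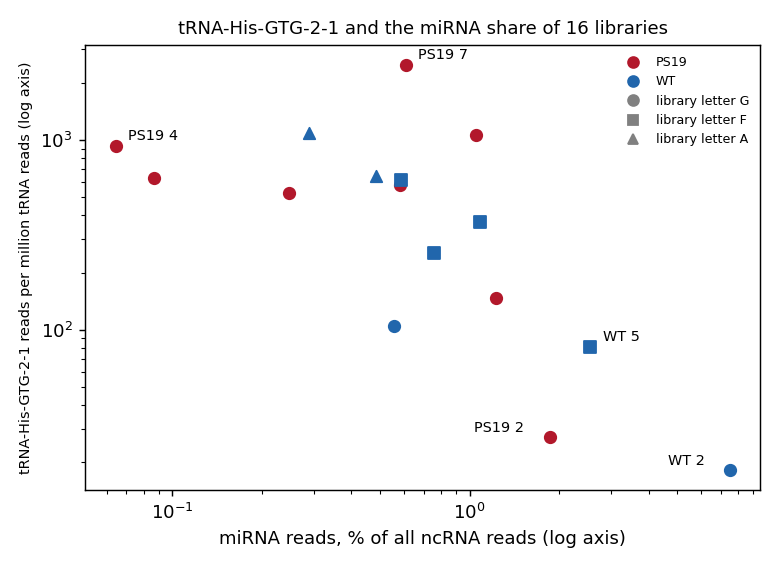
Each point is 1 library, with the miRNA share of its ncRNA reads on the x axis and tRNA-His-GTG-2-1 reads per 1000000 tRNA reads on the y axis, both logarithmic, coloured by genotype and shaped by the first letter of the library name. Points fall from PS19 replicate 4 at 931 on the left to WT replicate 2 at 18.2 on the right.

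The arginine anticodons stayed near the floor, and 19 of the 25 entries had under 100 reads over the 16 libraries. The most abundant entries of anticodons CCT and CCG, tRNA-Arg-CCT-4-1 and tRNA-Arg-CCG-3-1, had log2 fold changes of -0.17 (SE 0.60) and -0.62 (SE 0.70). tRNA-Arg-CCT-4-1 had 0, 8.30 and 16.2 normalized counts as lowest, median and highest PS19 library and 1.27, 9.19 and 21.8 in WT, the highest being WT replicate 2 with 53 reads. tRNA-Arg-CCG-3-1 had 0, 3.92 and 46.0 in PS19 and 1.95, 5.07 and 17.3 in WT, and its log2 fold change was -1.12 without PS19 replicate 4 and -0.32 without PS19 replicate 2. Neither entry separated the genotypes, and the sign of the first turned to 0.37 with miRNA size factors and to 0.036 without WT replicate 2. The sign of the second turned positive with DESeq2.

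tRNA-Arg-TCG-3-1 had reads in 5 of 8 PS19 and 3 of 8 WT libraries, and WT replicate 2 held 34 of its 36 WT reads. Its log2 fold change was 1.34 (SE 0.79, exact permutation p = 0.191), and 27 of its PS19 reads were in replicate 3. In limma without WT replicate 2 the difference was 1.79, and this entry and its 2 identical partners were among 4 entries of the 66 past a raw p under 0.05 (against 2.48% of all ncRNAs). It was 0.88 without PS19 replicate 3 and 0.12 within letter G, neither past it. tRNA-Arg-ACG-3-1, with 37 reads in PS19 and 48 in WT, had a log2 fold change of 0.035 (SE 0.66) that turned to -0.16 with library totals. tRNA-Arg-TCT-2-1, the most abundant TCT entry, had 50.2% of its normalized counts in PS19 replicate 4 and a log2 fold change of 0.13 (SE 0.82) that turned to -0.079 with library totals.

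The number of entries called higher changed with the analysis. DESeq2, the tool of the study's own threshold of a raw p under 0.05, called 9 of 66 higher (13.6%, against 3.83% of all ncRNAs), and these were tRNA-Lys-CTT-1-1, 6 copies of tRNA-Lys-TTT-1 and 2 copies of tRNA-Lys-TTT-2, which are 4 sets of distinct values. edgeR called 8 higher (12.1% against 7.88%), tRNA-Lys-CTT-1-1 and the 7 copies of tRNA-Lys-CTT-3, which are 3 sets of distinct values. In tRNA-Lys-CTT-3, PS19 replicate 4 held 1521 reads and no other library more than 182. miRNA size factors called 8 (12.1% against 5.05%) and so did a replicate block (against 2.61%). In both cases these were tRNA-Lys-CTT-1-1, tRNA-Arg-TCT-3-1 and 6 copies of tRNA-Lys-TTT-1, which are 4 sets of distinct values. Array weights with a robust fit, which together give less weight to libraries that vary more and to ncRNAs of unusual variance, called 0 higher, and library totals and tRNA totals each called 0 higher, against 2.59%, 0.957% and 0.904% of all ncRNAs. No entry was lower in PS19 with any of these, against 1.59% of all ncRNAs with DESeq2, 7.26% with edgeR, 0.851% with miRNA size factors, 1.91% with the block, 1.87% with array weights and the robust fit, 1.95% with library totals and 1.93% with tRNA totals.

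With the first letter of the library name as a covariate, 16 entries were higher (24.2%, against 1.11% of all ncRNAs). These were the 10 histidine entries and the 6 copies of tRNA-Lys-TTT-1, which are 6 sets of distinct values. Another 3 copies, of tRNA-Arg-CCT, were lower (4.55%, against 3.47%). Within letter G, 16 of 65 entries were higher (24.6%, against 0.998%), again 6 sets of distinct values, and 0 lower (against 3.62%). There tRNA-His-GTG-2-1 had 247 and 13572 normalized counts in WT replicates 2 and 4, and a log2 fold change of 4.44 that passed the raw threshold. WT replicate 4 lies above PS19 replicates 2 and 8. Without WT replicate 2 both fits called 0 entries in either direction (within letter G 0.778% of all ncRNAs were higher and 4.53% lower, and with the covariate 0.826% and 4.24%), and the log2 fold change of tRNA-His-GTG-2-1 within letter G was 1.55, with 1 WT library left and assumed to vary like the PS19 libraries. The letter and the genotype cannot be told apart beyond these 2 WT libraries.

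**Figure D5:**
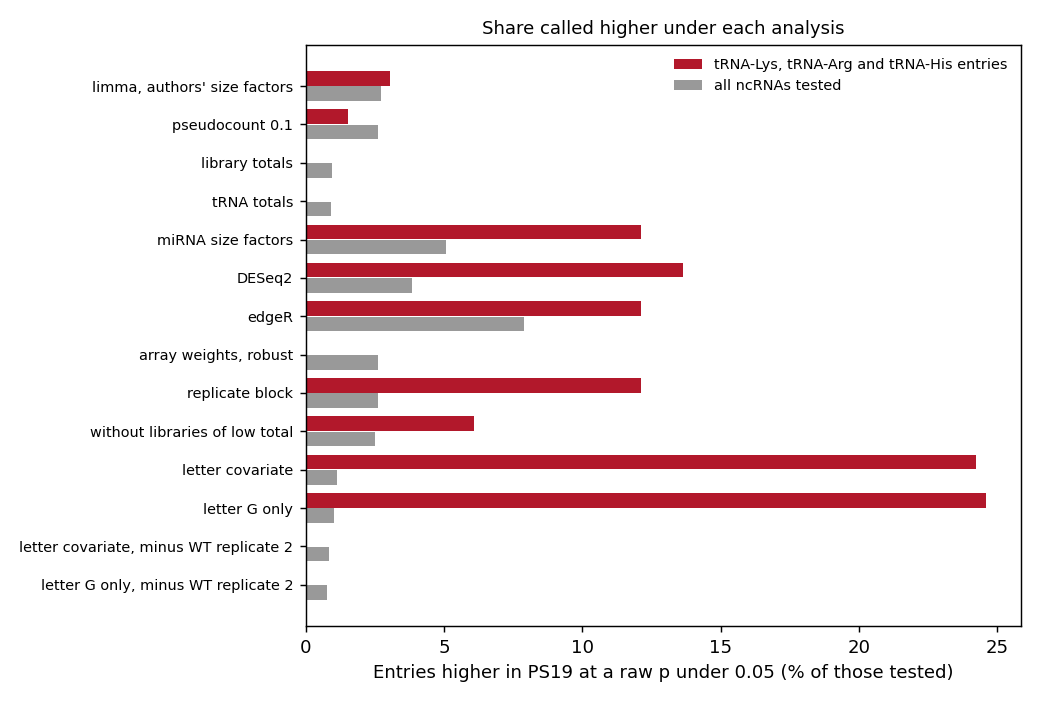
Bars give the share of entries higher in PS19 mice at a raw p under 0.05 among the lysine, arginine and histidine tRNAs (red) and among all ncRNAs tested (grey) under each analysis. Every gene copy counts as an entry, also where copies share their values. The share runs from 0% with library totals to 24.6% within letter G, and falls to 0% there without WT replicate 2.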

How the data were processed

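Small RNA libraries (NEBNext) of pEVs from 8 PS19 and 8 WT mice were grouped by the genotype label. The authors aligned reads to mm10 with STAR (2.5.3a), annotated them with COMPSRA and tested them with DESeq2 (1.42.1). The deposited signal is, per library, the read count of each ncRNA divided by the authors' DESeq2 size factor. Reads were recovered as whole multiples of the smallest step, and 100% of values came out whole within 1e-06. Columns of the authors' mean, log2 fold change, error, statistic and p-values were not used, and 0 sample columns lacked a sample.

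PS19 was compared with WT by limma (3.58.1) on log2(normalized count + 1) over all 15159 ncRNAs with at least 1 read, with Benjamini-Hochberg adjustment and a raw p threshold of 0.05. limma was the main test because the deposited values are normalized, with DESeq2 (1.42.0) and edgeR (4.0.16, quasi-likelihood) on the recovered reads as alternatives. Exact permutation tests covered all splits of 8 against 8. The remaining alternatives were a replicate block, array weights with robust empirical Bayes, other scalings, a pseudocount of 0.1, mean filters at 1 and 10, the library letter, 1 entry per identical set and each library left out. The letter combined with tRNA totals, and the letter fits without WT replicate 2, were added after the data were seen. The scripts were tested on simulated data.

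Named entries are the most abundant of each anticodon, those with a raw p under 0.05 (at most 12, 1 per identical set), the smallest p of an amino acid without one, and tRNA-Arg-TCT-4-1. The 66 members, marker lists and tests were chosen with earlier results of these data known. Each library is labelled as a separate mouse sample, and no further replicate level is given. RefSeq and GENCODE M21 references are GRCm38, the same build as mm10.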

Additional observations from a re-analysis of the deposited data

Results flagged for a closer look

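Within each genotype, the highest and lowest library of the named entries and anticodon sums was compared with the nearest library by Dixon's criterion, and 8 of 48 groups of 8 libraries had one that stood apart, where chance gives about 1 in 20 independent groups. These 48 are not independent, since sums contain named entries and near copies recur, and 4 entries were added after their values were seen, so the count cannot be set against chance. Sums are over all entries of an anticodon. PS19 replicate 4 was the high library for tRNA-Lys-CTT-3-6 (5833 normalized counts, next 120), for tRNA-Lys-CTT-2-1 (652, next 83.4) and for the Lys-CTT sum (42334, next 1067). PS19 replicate 2 was the low library for tRNA-Arg-CCT-4-1 (0, next 3.83, which is 1 read) and for the Arg-CCT sum (2.15, which is 3 reads over all copies, next 21.9). WT replicate 2 was the high library for tRNA-Arg-TCG-3-1 (13.98, next 1.01, which is 1 read) and the low one for tRNA-Lys-TTT-2-1 (6.17, next 12.8). WT replicate 4 was the high library for tRNA-Lys-CTT-1-1 (4.63, next 1.17), on 3 reads.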

How the results depend on the processing

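The number of entries higher in PS19 was 2 in the reported analysis, 1 with a pseudocount of 0.1 (2.59% of all ncRNAs), 0 of 30 with a mean of at least 10 (6.51%), 0 with library totals, tRNA totals or array weights with the robust fit, 8 with miRNA size factors, edgeR or the replicate block, 9 with DESeq2, 4 without libraries of low total (WT replicate 2; 2.48% of all ncRNAs), 16 with the letter covariate or within letter G, 9 with the letter covariate and tRNA totals (0.442% of all ncRNAs), and 0 with either letter fit once WT replicate 2 was left out as well. Leaving out 1 library gave 0 to 8, where 1.89% to 3.51% of all ncRNAs were higher (3.32% and 3.04% without PS19 replicates 2 and 8, which gave 8), with 0 lower (1.71% to 2.47% of all ncRNAs) and 0 adjusted throughout. Entries lower numbered 0 in the reported analysis, 3 with the letter covariate and 7 with the letter covariate and tRNA totals (10.6%, against 7.94% of all ncRNAs). After adjustment edgeR called 1. The replicate numbers do not pair the libraries: the deviations of same-numbered libraries correlated between -0.18 and 0.47, with 2 of 8 pairs over 0.1 and 1 PS19 library correlating best with its own number, and the replicate block of 8 calls added 6 copies of tRNA-Lys-TTT-1 to the 2.

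Among anticodon sums over all entries, the difference within letter G moved by more than the spread between libraries for Arg-CCT (-0.20 to -1.67), Arg-TCT (0.64 to -1.31) and His-GTG (1.31 to 4.44). Signs of named entries turned as follows on the log2 scale, and the cause was not tested. tRNA-Arg-ACG-3-1 was -0.16 with library totals, -0.17 with tRNA totals, -0.32 with DESeq2, -0.54 with edgeR, -0.080 with array weights and the robust fit, -0.0085 with either letter fit and -0.20 without low totals. tRNA-Arg-TCT-2-1 was -0.12 with a pseudocount of 0.1, -0.079 with library totals, -0.089 with tRNA totals, -0.086 without low totals, and -0.31 with array weights and the robust fit. tRNA-Arg-TCT-4-1 was -0.26 with library totals, -0.28 with tRNA totals, -0.20 with DESeq2, -0.49 with edgeR and -1.76 with either letter fit. tRNA-Lys-CTT-2-1 was 0.53 with miRNA size factors, 0.054 with edgeR and 0.28 with either letter fit. tRNA-Arg-CCT-4-1 was 0.37 with miRNA size factors and 0.036 without low totals. tRNA-Arg-TCT-3-1 was -0.73 with either letter fit, tRNA-Arg-CCG-3-1 0.27 with DESeq2, tRNA-Lys-CTT-3-6 -0.34 with DESeq2 and tRNA-His-GTG-1-1 -0.013 with edgeR. With either letter fit minus WT replicate 2, tRNA-Arg-ACG-3-1 was -1.71, tRNA-Arg-TCT-2-1 -1.41, tRNA-Arg-TCT-3-1 -0.77, tRNA-Arg-TCT-4-1 -2.53, tRNA-Lys-CTT-1-1 -0.38 and tRNA-Lys-CTT-2-1 0.22. With the letter covariate and tRNA totals, tRNA-Arg-ACG-3-1 was -0.49, tRNA-Arg-TCG-3-1 -1.31, tRNA-Arg-TCT-2-1 -0.52, tRNA-Arg-TCT-3-1 -1.82, tRNA-Lys-CTT-3-6 -0.53 and tRNA-Arg-TCT-4-1 -2.82, the last past the raw threshold. Leaving out 1 library gave -0.27 to 0.35 for tRNA-Arg-ACG-3-1, -0.44 to 0.44 for tRNA-Arg-TCT-2-1, -0.16 to 0.48 for tRNA-Arg-TCT-4-1, -0.52 to 0.13 for tRNA-Lys-CTT-2-1, -0.44 to 0.24 for tRNA-Arg-CCT-4-1 and -0.31 to 0.73 for tRNA-Lys-CTT-3-6. Of the 66 entries, 30 had under 100 reads in all, which limits what this depth can show for arginine and for the minor Lys-CTT isodecoders.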
